A study of Mus musculus with 4 samples.

Results

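The exons described here carry a constitutive label in the exon database of SpliceTrap, the program used to measure splicing, yet reads in the brain skipped them. An exon was taken when at least 1 of the 4 libraries had 20 or more reads on its 3 junctions, 10 or more of them on the junction that skips it, and a junction PSI of 80% or less. PSI, percent spliced in, is the share of transcripts that include an exon, and junction PSI is the mean of the reads on both inclusion junctions over the sum of that mean and the skipping reads. The members were thus chosen by the measured values themselves, so that their PSI is a description and no test is attached to it. Of 173699 constitutive-labelled middle exons, 1333 met these conditions, and 130559 had 20 or more junction reads in at least 1 library. The database labels another 9319 middle exons as cassette exons.

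The libraries were made from the polyA+ RNA of *Ptbp2* knockout mice and wild-type littermates, all on a Mixed C56Bl/6:129S2 background in the spelling of the labels. The NesKO, in which nestin-Cre removes the loxP-flanked exon 4 of *Ptbp2* in progenitors of the nervous system, and its E18 wild type were whole brains at embryonic day 18, with 2 brains in each library. The EmxKO, in which Emx1-Cre acts in the projecting neurons of the cortex, hippocampus and olfactory bulb and leaves *Ptbp2* intact in other cells, and the P1 wild type were cortices at postnatal day 1, with 1 animal in each library. Only the P1 libraries were strand specific, so that stage, tissue, Cre line and library protocol differ together and cannot be told apart. Each group has 1 library, the spread between animals is not known, and the 95% Wilson intervals given below cover counting error only.

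A constitutive exon is joined into every mature transcript of its gene, whereas a cassette exon is joined or left out. Leaving out an exon whose length is a multiple of 3 keeps the reading frame, and other lengths shift it, which can bring a stop codon ahead of the last exon junction and expose the transcript to nonsense-mediated decay. PTBP2 is an RNA-binding protein of neurons that binds CU-rich sequence and mostly holds back the inclusion of neuronal exons during differentiation.

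The coding exons below are shown because the results turn on them. The *Ptbp2* exon is the one deleted in the mice, the exons of *Dchs1*, *Abi2*, *Hecw1* and *Pdzd4* were included less in both knockouts and those of *Raph1* and *Lrrfip1* more, the exons of *Nova1* and *Cacna1a* set the wild-type libraries apart, and those of *Ttc28* and *Epn1* were skipped in all 4 libraries. Positions are in mm9, as the deposited tables give them, and the letters are those of the matching GENCODE M21 transcript, 5′ to 3′, with the CT-rich motif TCTT in capitals.
Ptbp2, chr3:119455862-119456034, - strand: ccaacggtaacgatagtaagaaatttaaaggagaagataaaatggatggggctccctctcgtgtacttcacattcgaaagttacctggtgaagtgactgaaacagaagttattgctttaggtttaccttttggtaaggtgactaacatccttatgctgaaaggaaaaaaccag
Dchs1, chr7:112909328-112909537, - strand: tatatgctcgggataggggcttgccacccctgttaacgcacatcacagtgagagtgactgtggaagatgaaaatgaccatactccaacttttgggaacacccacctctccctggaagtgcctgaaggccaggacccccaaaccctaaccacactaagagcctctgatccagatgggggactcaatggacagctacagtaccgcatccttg
Abi2, chr1:60504104-60504250, + strand: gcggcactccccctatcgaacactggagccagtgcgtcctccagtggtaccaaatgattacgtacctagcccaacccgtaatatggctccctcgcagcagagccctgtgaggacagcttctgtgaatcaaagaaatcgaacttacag
Hecw1, chr13:14403956-14404057, - strand: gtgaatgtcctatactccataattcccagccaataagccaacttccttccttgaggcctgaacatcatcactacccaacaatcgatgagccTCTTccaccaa
Pdzd4, chrX:71045173-71045426, - strand: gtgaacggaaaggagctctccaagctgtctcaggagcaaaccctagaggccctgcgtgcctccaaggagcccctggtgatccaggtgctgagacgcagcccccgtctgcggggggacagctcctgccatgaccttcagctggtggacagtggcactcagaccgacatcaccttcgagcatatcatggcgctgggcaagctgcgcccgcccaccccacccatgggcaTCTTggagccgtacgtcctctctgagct
Raph1, chr1:60575824-60575904, - strand: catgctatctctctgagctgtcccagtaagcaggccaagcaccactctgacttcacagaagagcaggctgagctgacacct
Lrrfip1, chr1:93005157-93005249, + strand: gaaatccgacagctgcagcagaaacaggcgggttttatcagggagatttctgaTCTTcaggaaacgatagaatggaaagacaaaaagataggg
Nova1, chr12:47814485-47814556, - strand: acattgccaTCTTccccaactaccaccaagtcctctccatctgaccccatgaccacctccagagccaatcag
Cacna1a, chr8:87138594-87138690, + strand: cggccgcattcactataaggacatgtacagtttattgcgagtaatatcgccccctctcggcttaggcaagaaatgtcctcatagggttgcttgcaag
Ttc28, chr5:111606639-111606731, + strand: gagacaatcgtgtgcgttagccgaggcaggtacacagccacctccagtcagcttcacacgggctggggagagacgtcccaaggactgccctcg
Epn1, chr7:5044914-5044988, + strand: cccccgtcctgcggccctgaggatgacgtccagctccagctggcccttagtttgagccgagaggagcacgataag

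TCTT, searched on the transcript strand with overlaps allowed, was found in 35.6% of the 1241 skipped exons with a sequence (442 exons) and in 39.5% of the 128124 constitutive-labelled exons tested that had one. The skipped exons were shorter, and the tested exons gave 35.0% when weighted to the same classes of length. Of the exons printed above, those of *Hecw1*, *Pdzd4*, *Lrrfip1* and *Nova1* held the motif and the other exons did not. Introns were not searched.

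The targeted exon is itself among the skipped ones and was used to check the labels. Exon 4 of *Ptbp2* has 173 nt, and its loss shifts the frame, leaving 53 codons of 532. It had 0 inclusion reads and 257 skipping reads in the NesKO (PSI 0; interval, 0 to 1.47), and a PSI of 99.8 in the E18 wild type (interval, 98.7 to 100). In the EmxKO its PSI was 17.4 (14.9 to 20.1). The P1 wild type, which should carry the intact exon, had 604 skipping reads and a PSI of 68.5 (66.3 to 70.5), so that this library goes against its label to that extent. The comparisons at P1 cannot be made without it. When it was left out of the rule, 1171 of the 1333 exons were still taken.

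The libraries held 49445721 to 85073560 reads on distinct junctions, with more at P1 than at E18. Over the skipped exons with 20 or more junction reads, the median was 105 reads in the NesKO, 118 in the E18 wild type, 164 in the EmxKO and 170 in the P1 wild type, so that 3 reads make up 2.86, 2.54, 1.83 and 1.76% at the median. The summed levels of most marker lists for other cells and regions differed between the stages, and some differed between knockout and wild type. Summed over the 3 blood genes measured, reads per 1000000 junction reads were 2770 and 2120 in the E18 libraries (NesKO first) and 309 and 323 at P1 (EmxKO first). The 3 measured genes of cerebellum and brain stem gave 54.7 and 50.8 against 4.19 and 3.1, the 3 of cortex 115 and 126 against 364 and 433, and the 6 of neural progenitors 557 and 512 against 285 and 374. The 6 neuronal genes gave 1790 and 2090 at E18 and 2760 and 2830 at P1, and the 3 endothelial genes 117 and 137 against 77.2 and 66.6. The 4 microglial genes, at 92.9 and 63.6 against 56.6 and 36.4, were higher in each knockout than in its own wild type. The 5 astrocyte genes were at 551 and 645 against 464 and 405, and the 4 genes of the oligodendrocyte lineage, at 61.7 and 89.1 against 92.2 and 77.1, did not separate the stages. No measured marker was at 0. The part of these cells in any difference below was not tested, and fewer cells of a type cannot be told apart from less RNA per cell.

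Most of the exons were skipped in a minority of transcripts, and a smaller set was nearly never included. The median junction PSI was 70.9 in the NesKO, 71.0 in the E18 wild type, 70.1 in the EmxKO and 67.5 in the P1 wild type. Of the exons with 20 or more junction reads, 140, 157, 184 and 195 were at or under 20% in the same order. Over all constitutive-labelled exons tested the median was 100 in every library, and 72.8 to 79.4% of them had no skipping read. SpliceTrap's own call placed 77.0% of the skipped exons among cassette exons in the NesKO, 77.4% in the E18 wild type, 86.6% in the EmxKO and 87.3% in the P1 wild type. These shares are of all 1333 exons, and 127, 100, 55 and 54 of them had no call in the same order. SpliceTrap's own inclusion ratio lay within 10 points of the junction PSI for 75.6% of the exons with 20 or more junction reads in the NesKO. In the P1 wild type the share was 80.7%.

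**Figure D1:**
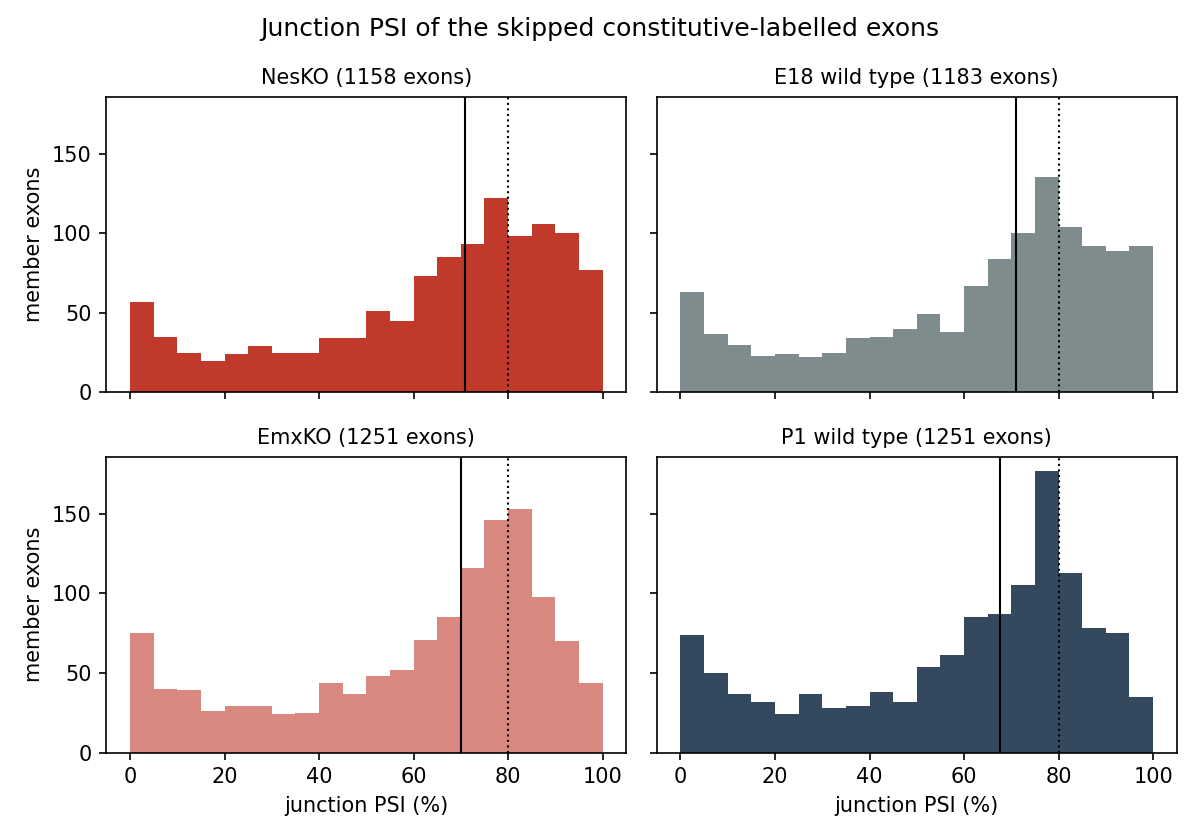
Junction PSI (%) of the skipped exons in each library, in bins of 5 points, for exons with 20 or more junction reads (number in each title). The solid line is the median and the dotted line is the limit of 80% in the rule. The medians lie between 67.5 and 71.0 in the 4 libraries, and a smaller heap of exons lies near 0.

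The rule was met in all 4 libraries by 382 exons, in 3 by 155, in 2 by 373 and in 1 by 423. The largest groups after the 382 were the 201 exons taken in both P1 libraries only, the 162 taken in the P1 wild type only and the 111 taken in both E18 libraries only. Another 100 were taken in the EmxKO only, 93 in the E18 wild type only and 68 in the NesKO only. The P1 libraries were also the deeper ones, and the rule needs 10 skipping reads. At the edge of the rule, the lowest PSI of an exon of 73 nt in *Wiz* and of 157 nt in *Tmem38b* was 80, just inside, and that of an exon of 98 nt in *Adprm* and 51 nt in *Rgs7* was 80.1, just outside. All 4 values are those of the P1 wild type.

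Of the 1072 exons with 20 or more junction reads in every library, 97 were at or under 20% in all 4 and 285 were between 20 and 80% in all 4. The range of an exon over the 4 libraries had a median of 18.0 points. It was 10 points or less in 212 exons and over 30 points in 170.

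Several exons were close to never included. The 93 nt exon of *Ttc28* had 570 to 1767 skipping reads in the NesKO, EmxKO and P1 wild type with no inclusion read, and 431 with 1 inclusion read in the E18 wild type, a PSI of 0.116. *Tpm3*, which codes for a tropomyosin of the actin filament, skipped an exon of 126 nt in 301 to 661 reads, with a PSI from 0 to 0.166. In *Rab40c*, *Clpb* and *Ptpmt1*, which code for a small GTPase, a mitochondrial chaperone and a mitochondrial phosphatase, exons of 179, 128 and 58 nt stood between 0 and 0.226 in every library. The 153 nt exon of *Aldoa*, the glycolytic enzyme aldolase A, holds the start codon of its annotated transcript and was at 0.551, 0.32, 0.663 and 0.669, with 5501 skipping reads in the NesKO. For *Mapt*, the microtubule-associated protein tau, the 87 nt exon numbered 3 in its transcript was at 0.493, 1.05 and 1.81 in the NesKO, E18 wild type and EmxKO and at 5.79 (interval, 3.48 to 9.47) in the P1 wild type. The exons of *Pcgf2*, *Pex2*, *Zfp523* and *Exd2* in this group lay between 0.419 and 3.16.

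The largest numbers of skipping reads came from *Epn1*, *Aldoa*, *Ank2* and *Capzb*. *Epn1* codes for epsin 1, an adaptor of clathrin-mediated endocytosis, and its 75 nt exon had 7591 skipping reads in the NesKO, 6841 in the E18 wild type, 5464 in the EmxKO and 4375 in the P1 wild type. Its PSI was 6.26, 7.61, 7.8 and 9.2. The 113 nt exon of *Capzb*, the beta subunit of the actin capping protein, holds the stop codon of its transcript and was at 9.32, 6.21, 7.83 and 4.5. Ankyrin 2 ties membrane proteins to the spectrin skeleton, and the 183 nt exon of *Ank2* was at 14.9 in the NesKO, 29.5 in the E18 wild type, 10.9 in the EmxKO and 12.4 in the P1 wild type. The E18 wild type stood above the other libraries there, with an interval of 27.8 to 31.3.

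Features that the rule did not use also set the skipped exons beside the other constitutive-labelled ones. The gene could be named from exon and intron lengths for 1276 of the 1333, in 1119 genes, and 1241 matched an annotated transcript by the exon and both introns. The skipping junction itself was annotated in the same gene for 42.1% of these (522 exons; interval, 39.3 to 44.8%), against 3.45% of all exons tested that matched. Among the 97 exons at or under 20% in all libraries the share was 79.3% (73 of 92 matched). The database also lists 329 of the 1333 (24.7%) as cassette exons in another trio, against 1.26% of all tested.

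The skipped exons lay more at the ends of transcripts and outside the coding sequence. They were the second exon of their transcript in 29.8% of cases (interval, 27.3 to 32.4%), against 10.6% of all tested, and the last but one in 21.6% (19.4 to 24.0%) against 10.7%. Only 60.1% lay inside a complete coding sequence, clear of its start and stop codons, against 91.4%. Another 11.5% lay in a 5′ untranslated region, against 1.11%, and 13.0% in transcripts with no annotated reading frame, against 1.72%. For the 746 coding exons, skipping kept the frame without a new stop codon in 49.1% (45.5 to 52.6%), against 39.5% of all coding exons tested. In 38.5% (35.0 to 42.0%) it shifted the frame and put a stop codon at least 50 nt before the last junction, against 51.9%.

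Their median length was 105 nt, against 125 nt, and the upstream and downstream introns had medians of 2140 and 2050 nt, against 1370 and 1260 nt. Another exon of the database lay in the same gap for 30.6%, against 10.9%. Exons of 27 nt or less made up 3.9% (52 exons in 50 genes), against 0.442% of all tested. Of these short exons 44 had a length that is a multiple of 3, and 34 of the 38 inside the coding sequence kept the frame. All these shares are descriptions, with no test, and the exons of a gene are not independent.

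**Figure D2:**
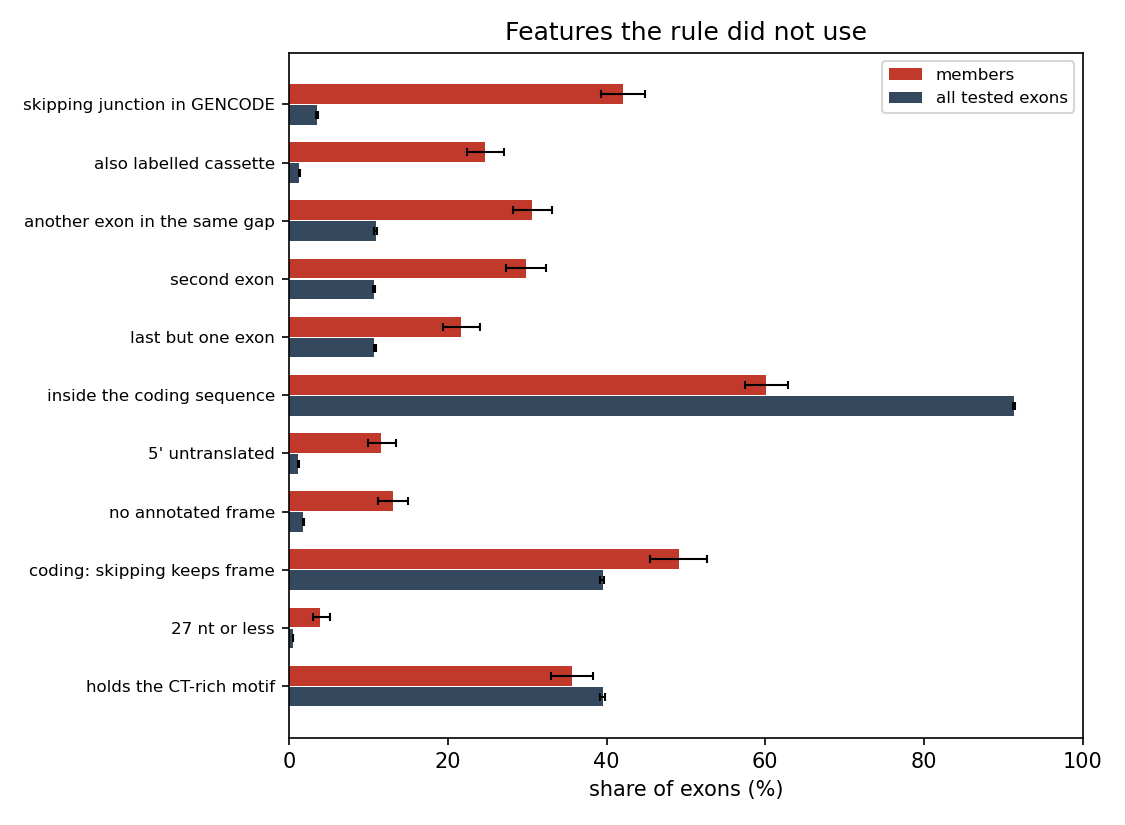
Share (%) of the skipped exons (red) and of all constitutive-labelled exons with 20 or more junction reads in a library (dark) that have each feature, with 95% Wilson intervals. The skipping junction is annotated for 42.1% against 3.45%, and 60.1% against 91.4% lie inside the coding sequence.

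An uneven pair of inclusion junctions marks part of the set. In 297 of the 1333 exons 1 inclusion junction had 10 or more times the reads of the other in at least 1 library, so that their junction PSI averages unlike counts. The second exon of a transcript made up 34.7% of the matched exons of this kind and 28.6% of the others. In 108 exons the skipping junction is shared with another member, so that its reads serve both.

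The NesKO brain and its wild-type littermates were compared for 1125 skipped exons with 20 or more junction reads in both libraries. The PSI was at least 10 points higher in the NesKO for 156 exons and lower for 154, beside 0.329% higher and 0.303% lower among all 120542 constitutive-labelled exons compared. With intervals that did not overlap as well, 41 were higher and 47 lower, beside 0.0506% in each direction of all exons. The rule used these libraries, so nothing is read from the members' larger shares. The median difference was 0 points and the median size of a difference 5.5 points, against 0 over all exons compared.

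In the cortex at P1, 1220 skipped exons were compared. The EmxKO was at least 10 points above its wild type for 192 exons and below it for 137, beside 0.379% and 0.28% of all 119643 exons compared. With intervals apart, 71 were higher and 38 lower, beside 0.0744% and 0.0376%. The median difference was 1.12 points. Of the coding exons among the 71, 30 of 44 kept the frame when skipped, and of those among the 38, 14 of 29. At E18 the numbers were 15 of 24 for the higher exons and 19 of 37 for the lower. Over all coding skipped exons the share was 49.1%, and the counts of the lower exons lie near it. A difference in frame between higher and lower exons was not tested.

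The 2 knockout comparisons share no library. Of the exons compared in both, 87 passed 10 points with intervals apart at E18 and 105 at P1. Both lists hold 37 exons, 42.5% of the first and 35.2% of the second. The same overlap was not counted over all constitutive-labelled exons, so nothing about the members is read from these shares. The PSI was higher in both knockouts for 20, lower in both for 15, and of opposite direction for 2.

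**Figure D3:**
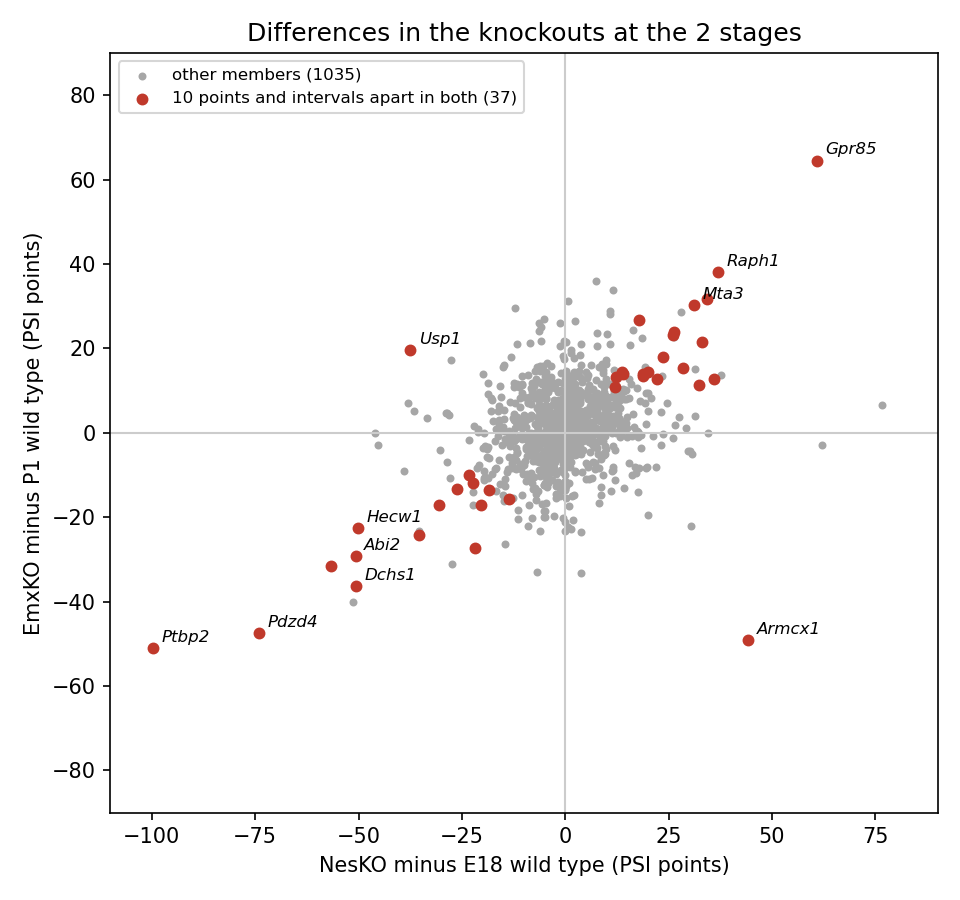
Difference in junction PSI (points) between the NesKO and the E18 wild type (horizontal) and between the EmxKO and the P1 wild type (vertical), for the 1072 skipped exons with 20 or more junction reads in all libraries. Each point is an exon. Red points passed 10 points with intervals apart in both comparisons, 35 of 37 of them in the same direction. The rule used these libraries, so that the agreement is described only.

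Among the 15 exons lower in both knockouts, 5 keep the frame when skipped, 6 shift it with an early stop codon and 3 shift it with a later one, and *Ptbp2* exon 4 is among the 6. The 254 nt exon of *Pdzd4*, a PDZ domain protein, had a PSI of 91.1 (interval, 87.6 to 93.7) in the E18 wild type and 17.1 (12.5 to 22.9) in the NesKO. It was at 81.2 in the P1 wild type and 33.7 in the EmxKO, and its loss leaves 25 of 772 codons. The knockouts lay below both wild types with room between the intervals. No transcript of the annotation has this skipping junction.

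*Dchs1* codes for a large protocadherin of cell adhesion and planar polarity, and its 210 nt exon kept the frame. It was close to always included in the wild types, at 99.7 and 99.8, with 2 skipping reads at E18 and 3 at P1. In the NesKO 248 reads skipped it, a PSI of 49.1 (interval, 44.7 to 53.5), and in the EmxKO 397, a PSI of 63.4 (60.5 to 66.3). The exon of 147 nt in *Abi2*, a member of the WAVE complex that drives actin assembly, was at 78.0 and 72.2 in the wild types and at 27.3 and 42.9 in the NesKO and EmxKO. That of 102 nt in *Hecw1*, a HECT-type ubiquitin ligase, was at 87.3 and 89.9 against 37.2 and 67.4. In these 3 exons both wild types lay above both knockouts, and the difference was larger at E18 than at P1. That difference between the comparisons was not tested. The deleted *Ptbp2* exon was itself at 99.8 and 0 at E18 and at 68.5 and 17.4 at P1, wild type first. The P1 libraries thus stood less far apart in *Ptbp2*, and the part of this in the smaller differences was not tested.

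Exons of *Entpd5* and *Tent2* were skipped by few reads in the wild types. The 80 nt exon of *Entpd5*, a nucleoside diphosphatase, had 0 skipping reads in both wild types, 28 in the NesKO (PSI 43.4) and 26 in the EmxKO (PSI 68.5). The 70 nt exon of *Tent2*, a poly(A) polymerase of the cytoplasm, was at 97.8 and 94.7 in the wild types and at 62.4 and 70.3 in the knockouts. Both shift the frame with an early stop codon. The remaining exons of the group lay in *Gtf2a2*, a subunit of the general factor TFIIA (127 nt, 87.3 to 61.1 at E18 and 91.1 to 77.8 at P1), *Stau2*, *Tex264*, *Rab3ip*, *Faxc*, *Det1* and *B9d1* and in the 407 nt exon of *Crtc2*, with differences from -10.07 to -30.56 points.

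Of the 20 exons higher in both knockouts, 9 of the 12 inside the coding sequence kept the frame, beside 49.1% of all coding skipped exons. The 124 nt exon of *Gpr85*, an orphan G protein-coupled receptor of the brain, lies in the 5′ untranslated region and had the largest differences of the group. It was at 30.9 (interval, 26.1 to 36.1) in the E18 wild type and 91.6 (88.4 to 94.0) in the NesKO, and at 19.0 (16.6 to 21.7) in the P1 wild type and 83.5 (80.6 to 86.0) in the EmxKO. The 81 nt exon of *Raph1*, which codes for lamellipodin, an actin regulator of the leading edge, was at 45.1 and 45.8 in the wild types and at 82.0 and 83.9 in the knockouts.

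In *Mta3*, a subunit of the NuRD chromatin complex, the 191 nt exon lay in the 3′ untranslated region of the matched transcript and was at 26.8 and 28.3 in the wild types and 58.0 and 58.5 in the knockouts. *Zfp286*, a zinc finger gene, had an exon of 115 nt at 57.3 and 64.5 in the wild types and 91.6 and 96.2 in the knockouts.

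The paralogs *Lrrfip1* and *Lrrfip2* each had an exon of 93 nt in the group. The 93 nt exon of *Lrrfip1* was at 64.2 and 62.5 in the wild types and 90.1 and 85.5 in the knockouts, and the 93 nt exon of *Lrrfip2* at 15.6 and 17.1 against 51.5 and 29.8. Exons of *Arhgef12* (57 nt), which codes for a guanine nucleotide exchange factor, and *Dtnb* (90 nt, exon 11 of its transcript), a gene of the dystrophin complex, were at 7.48 and 38.9 in the E18 wild type and at 19.8 and 62.5 in the NesKO. At P1 they were at 9.57 and 31.1 in the wild type and 22.8 and 49.0 in the EmxKO. Further exons lay in *Crtc2* (69 nt), *Dpf1*, *Gripap1*, *Iqsec3*, *Lss*, *Nbdy*, *Pum2*, *Rbm10*, *Sema4f* and *Wdr90*, with differences from 10.76 to 32.21 points. *Crtc2*, a coactivator of CREB, thus had an exon in each direction, since its 407 nt exon went from 66.6 to 46.3 at E18 and from 61.1 to 44.1 at P1.

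**Figure D4:**
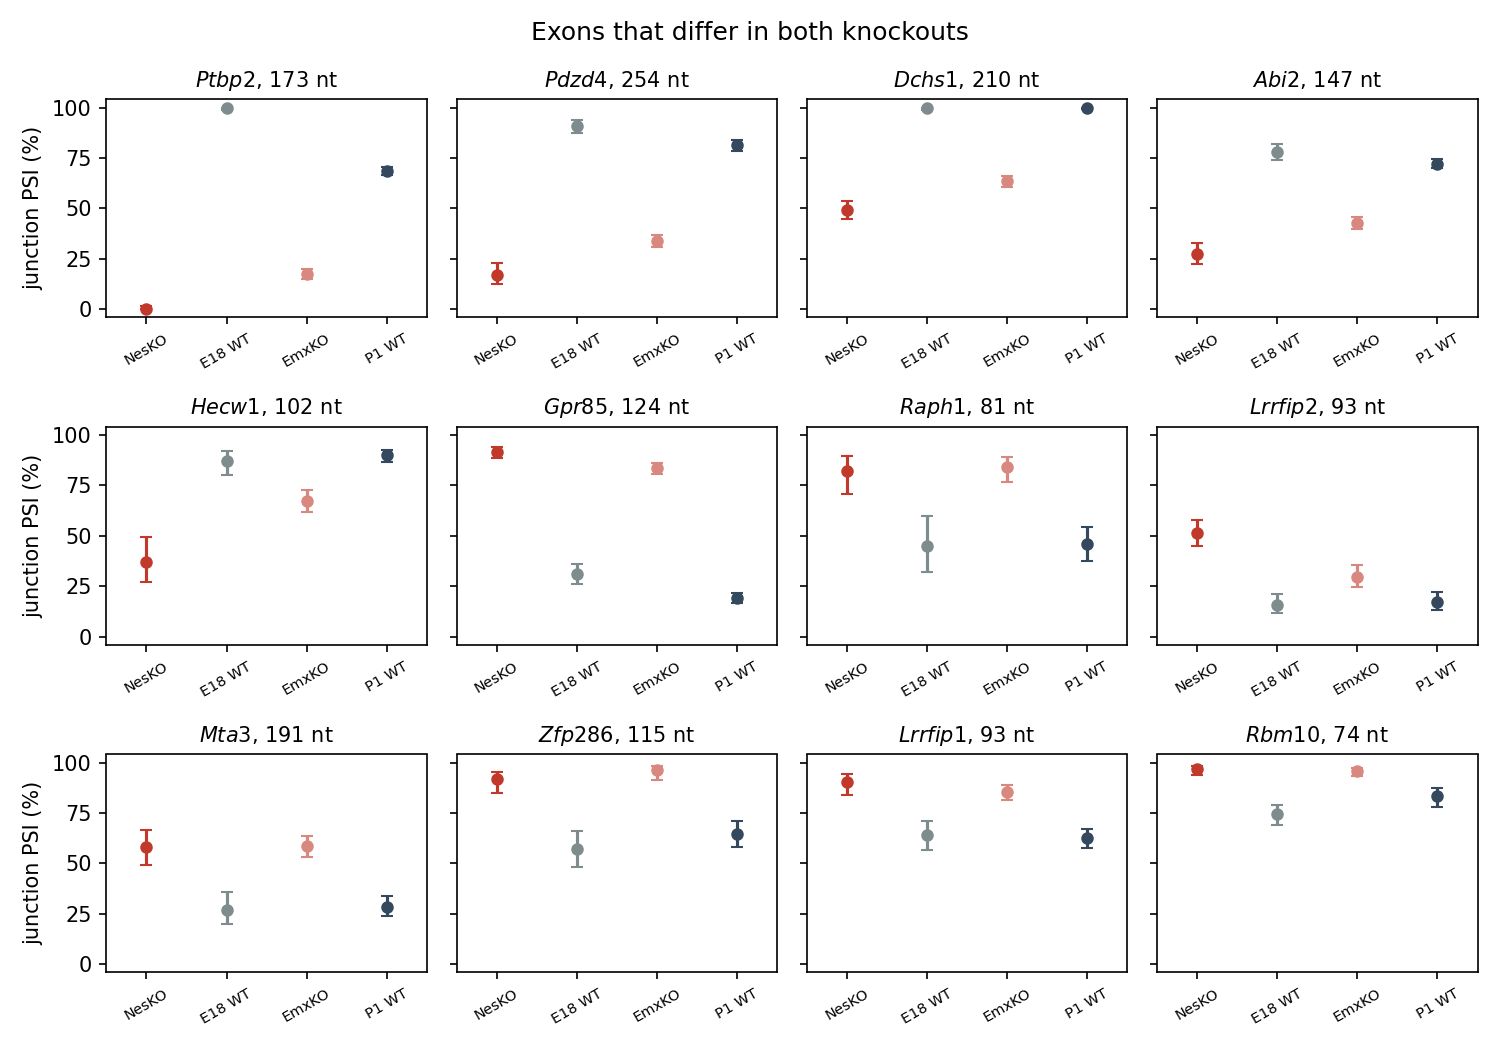
Junction PSI (%) of 12 exons that passed 10 points with intervals apart in both knockout comparisons, in the 4 libraries. Each point is 1 library and the bars are 95% Wilson intervals for counting error. The first 5 panels show exons lower in both knockouts, the other 7 exons higher in both, such as *Gpr85* at 91.6 and 83.5 against 30.9 and 19.0.

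Other exons stood apart in a single comparison, and for these the difference between the stages was not tested. *Cacna1g*, a T-type calcium channel, had an exon of 144 nt at 34.8 in the E18 wild type, against 79.7 in the NesKO. Its SpliceTrap ratios were far lower, at 8.9 and 30.2% in the same order, so that its level depends on the measure. The P1 wild type had only 19 junction reads on this exon, under the minimum of 20, so that the P1 libraries were not compared. Junction PSI was 52.0 from those reads, against 74.2 for EmxKO cortex. An exon of 135 nt in *Nell1* was at 99.2 in the E18 wild type and 53.8 in the NesKO, but at 100 and 97.1 at P1. The 31 nt exon of *Fgd2* went from 87.1 to 35.6 at E18, and at P1 it had 25 junction reads in the wild type, with 72.4 against 32.3 in the EmxKO and intervals that overlapped.

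In the P1 comparison, exons of 69 nt in *Ncoa6*, a nuclear receptor coactivator, and of 96 nt in *Spata7* were higher in the EmxKO. They were at 60.2 against 26.4 and 82.0 against 55.1. Exons of 63 nt in *Ube2d-ps* and 61 nt in *Yipf2* were higher too, at 82.5 against 46.6 and 84.3 against 54.6. The *Yipf2* inclusion junctions were uneven in both P1 libraries, and *Ube2d-ps* is a pseudogene whose reads may be shared with its parent genes. The 36 nt exon of *Atp2b4*, a calcium pump of the plasma membrane, was lower, at 41.1 against 74.0.

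The wild-type libraries differed from each other in more of the skipped exons. Of 1127 compared, 242 were at least 10 points higher in the P1 wild type and 364 lower, beside 0.47% and 0.664% of all 117539 exons compared. With intervals apart, 139 were higher and 218 lower, beside 0.199% and 0.316%. The median difference was -2.27 points and the median size 10.93 points. The P1 library was the deeper one, and an exon that passes the rule through it can lie anywhere above 80% at E18. This comparison shares a library with each of the knockout comparisons, and the values are set side by side only.

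*Nova1*, an RNA-binding splicing factor of neurons, had an exon of 72 nt at 47.3 (interval, 43.3 to 51.5) in the E18 wild type and 52.7 in the NesKO, and at 98.0 and 99.1 in the P1 wild type and EmxKO. *Cacna1a*, the pore of the P/Q-type calcium channel, had an exon of 97 nt at 77.8 (61.9 to 88.3) in the E18 wild type and 24.4 (14.2 to 38.7) in the P1 wild type, with 63.6 in the NesKO and 15.2 in the EmxKO. The exons of 69 nt in *Arfgef2*, 73 nt in *Bex3*, 12 nt in *Nrcam* and 60 nt in *Ssbp4* were lower at P1 in the wild types, at 38.8, 45.8, 27.9 and 26.2 against 94.1, 98.1, 78.5 and 71.8. Those of 138 nt in *Agap3* and 61 nt in *Kidins220* were higher at P1, at 88.7 and 91.1 against 42.0 and 34.1. By junction PSI, both libraries of one stage lay above both libraries of the other in each of these 8 exons. The SpliceTrap ratios of *Agap3* and *Kidins220* were far lower, at 28.2 and 14.2% in the P1 wild type and 6.3 and 5.6% in the E18 wild type. That of *Bex3* was 11.9% at P1 and 39.2% at E18 in the wild types. The inclusion level of these exons thus depends on the measure. The *Bex3* inclusion junctions were uneven at E18, with 765 reads upstream and 41 downstream in the wild type. A larger difference was seen for *Armcx1* (92 nt, 21.9 at E18 and 92.5 at P1), whose knockouts did not lie with their own wild types.

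**Figure D5:**
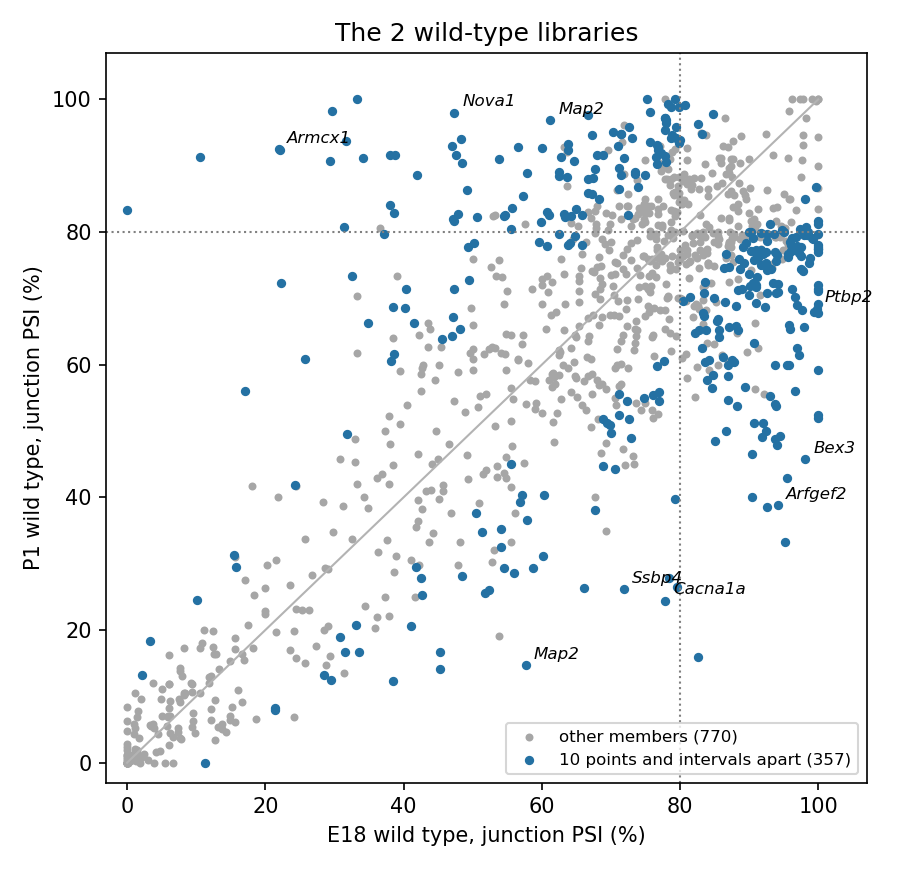
Junction PSI (%) of the 1127 skipped exons with 20 or more junction reads in both wild-type libraries, at E18 (horizontal) and P1 (vertical). Blue points differ by 10 points or more with intervals apart (139 above and 218 below the diagonal), and dotted lines mark the limit of 80%. Exons above 80% in both libraries were taken through a knockout library.

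Splicing and RNA-binding factors, a list of 50 genes, held 11 skipped exons of 463 tested (2.38%), beside 1.02% of all constitutive-labelled exons tested. At E18, 2 of the 9 compared were higher in the NesKO and 1 lower, with intervals apart and 10 points or more, and their median difference was 5.36 points. At P1, 1 of 11 was higher and 1 lower, with a median of 3.54. *Ptbp2* exon 4, the deleted exon, is the lower one in both. Of all skipped exons compared, 3.64% were higher and 4.18% lower at E18 with these limits, and 5.82% and 3.11% at P1. Between the wild types the shares were 12.3% and 19.3%. Of all constitutive-labelled exons compared, 0.0506% passed in each direction at E18 and 0.0744% and 0.0376% at P1. Between the wild types 0.199% and 0.316% did. Counts as small as those of this list say nothing about its genes as a class. *Rbm10* and *Rbm5*, related factors of 3′ splice site choice, each had an exon of 74 nt with an early stop codon when skipped. The *Rbm10* exon was at 74.4 and 83.2 in the wild types and 96.7 and 95.9 in the knockouts. The *Rbm5* exon was at 63.7 in the E18 wild type and 85.6 in the NesKO, and at 92.4 in the P1 wild type and 84.2 in the EmxKO. The 88 nt exon of *U2af1*, the small subunit of the factor that reads the 3′ splice site, was at 96.8 and 96.7 at E18 and at 79.2 and 86.1 at P1, wild type first. In the stage comparison 2 of 9 were higher, in *Nova1* and *Rbm5*, and 2 lower, in *Ptbp2* and *U2af1*. The *Ptbp2* exon is the deleted one, and its skipping in the P1 wild type goes against the label of that library. Its fall is therefore not read as a difference between stages. Exons of *Celf2*, *Hnrnph1*, *Srsf11*, *Ptbp3* and *Rbfox1* make up the rest, and the 36 nt exon of *Celf2* stood at 66.0 to 69.8 in every library, from uneven inclusion junctions in each.

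Genes of the synapse, a list of 38, held 18 skipped exons of 639 tested (2.82%, beside 1.02% of all). At E18, 1 of 16 compared was higher in the NesKO and none lower, and at P1 3 of 18 were higher and 1 lower, with medians of 2.18 and 4.13 points. *Nlgn3* and *Grin1* were among the higher ones at P1. The stage comparison had 5 of 17 higher and 2 lower. Of all constitutive-labelled exons compared, 0.0506% passed in each direction at E18 and 0.0744% and 0.0376% at P1. Between the wild types 0.199% and 0.316% did, and nothing about synaptic genes as a class is read from the small counts. Several of the 18 skipped exons belong to adhesion molecules that join the synapse. *Nrxn2* and *Nrxn3*, presynaptic neurexins, each had an exon of 27 nt, at 63.8 and 66.5 in the E18 wild type and 78.0 and 78.6 in the P1 wild type. The intervals of the *Nrxn3* exon overlapped, so that it is not among the 5. Of their postsynaptic partners, *Nlgn2* had an exon of 51 nt at 82.9 and 78.5 in the wild types and *Nlgn3* an exon of 60 nt at 60.3 and 40.4, with 69.1 in the NesKO and 56.8 in the EmxKO. The scaffolds *Shank1*, *Dlg3* and *Shank2* had exons of 27, 54 and 21 nt at 13.8, 17.4 and 80.4 in the E18 wild type and 5.1, 20.8 and 87.7 in the P1 wild type. The 111 nt exon of *Grin1*, the obligatory subunit of NMDA receptors, was at 61.8 and 58.1 in the wild types and 58.95 and 69.8 in the NesKO and EmxKO. At the presynaptic active zone, where vesicles are released, *Erc1* and *Rims1* had exons of 234 and 81 nt that were higher in the P1 than in the E18 wild type, at 93.3 and 72.8 against 63.8 and 49.5. The inclusion junctions of the *Erc1* exon were uneven in every library, and those of the *Shank1* exon in both P1 libraries and of the *Dlg3* exon in all but the E18 wild type. The 69 nt exon of *Cadps*, a factor that primes dense-core vesicles, was lower, at 51.2 against 69.5. Exon 18 of *Dlg4*, the scaffold PSD-95, is labelled constitutive too but was no member, since its lowest PSI was 92.5, in the E18 wild type, against 99.4 in the NesKO.

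Genes of the cytoskeleton and cell adhesion, a list of 35, held 19 skipped exons of 1024 tested (1.86%, beside 1.02% of all). At E18, 2 of the 18 compared were lower in the NesKO and none higher, and at P1 none of 19 passed in either direction, with medians of 0.18 and 0.21 points. Both lower exons belong to ankyrins, the 183 nt exon of *Ank2* given above and the 218 nt exon of *Ank3*, at 57.8 in the NesKO and 76.7 in the E18 wild type. The *Ank3* inclusion junctions were uneven in every library, with 7 and 152 reads in the NesKO and 7 and 276 in the E18 wild type, so that its PSI averages unlike counts. The stage comparison had 1 of 18 higher and 5 lower. Of all constitutive-labelled exons compared, 0.0506% passed in each direction at E18 and 0.0744% and 0.0376% at P1. Between the wild types 0.199% and 0.316% did, and nothing about this class of genes is read from the small counts. *Map2*, the microtubule-associated protein of dendrites, had an exon in each direction. Its 63 nt exon in the 5′ untranslated region was at 57.7 in the E18 and 14.7 in the P1 wild type, and its coding exon of 75 nt at 61.2 and 96.9. The knockouts were within 2.27 points of their wild types in both. *Map4* had exons of 222 and 190 nt at 72.0 to 75.9 and 40.2 to 45.0, and the 42 nt exon of *Kif1b*, a kinesin, was at 14.9 to 17.3, so that these exons varied little between the libraries.

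Genes of chromatin and transcription, a list of 20, held 4 skipped exons of 358 tested (1.12%), close to the 1.02% of all. They lay in *Atrx*, *Foxp1*, *Mef2c* and *Mef2d*, and none of them passed 10 points with intervals apart in any comparison. The 135 nt exon of *Mef2d* had a PSI of 43.6 from 28 junction reads in the E18 wild type and 81.2 from 29 in the NesKO, a difference not detectable at this depth. Its SpliceTrap ratios were far lower, at 6.1 and 9.5%. The 8 genes of nonsense-mediated decay held no skipped exon among 177 tested, too few exons to read anything from at a share of 1.02% over all.

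Genes with several skipped exons were 141 in number. The noncoding RNA gene *Firre* had 7, the most of any gene, and *Trim9* had 4. In *Trim9*, a ubiquitin ligase of axons, 2 of the 4 are versions of 30 and 33 nt with a common skipping junction. The 33 nt version was at 36.2 in the NesKO, 55.0 in the E18 wild type, 60.4 in the EmxKO and 71.2 in the P1 wild type.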

How the data were processed

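SpliceTrap tables of 4 libraries were analysed. The authors mapped paired reads of 100 nt to a database of exon trios on mm9. CASAVA, TopHat and Cufflinks are named in the submitters' processing notes. Each deposited row holds whole read counts of the 3 junctions of a trio, not normalized, the authors' inclusion ratio as a fraction from 0 to 1, and read coverage (signal) per exon as the authors' program computed it, on a scale that is not given in the sources used here. The deposited counts are specific to a trio. For 375385 pairs of a shared junction and a library with 50 or more reads, the lowest count was at the median 95.3% of the highest, and it was under 50% of it in 8.75%.

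A single trio was kept for each middle exon, the one with the most skipping reads over the 4 libraries. The members, lists and tests were chosen with earlier results of these data known. A difference was counted at 10 points or more with 20 or more junction reads in both libraries, and also with 95% Wilson intervals apart. The named exons were the 12 lowest among those with 100 or more reads in every library, the 8 largest differences in each direction of each comparison with 50 or more reads and intervals apart, the 4 with most skipping reads, the exons in the gene lists, the 2 on each side of the limit, and those of *Ptbp2* and *Dlg4*. The exons that differed in both knockouts were added after their values were seen. Named exons without a gene name, and a few others, are not reported here. Gene names come from exon and intron lengths in GENCODE M21, with no conversion of coordinates, and a frame is that of 1 matched transcript. Python 3.11.15, numpy 2.4.6, pandas 2.3.3, scipy 1.17.1 and matplotlib 3.10.9 were used. The selection of exons was tested on simulated data. Alternatives changed the read minimum, the PSI limit, the junctions averaged, the trio kept and the cutoff in points.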

Additional observations from a re-analysis of the deposited data

Results flagged for a closer look

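In 2 exons the knockouts differed from their wild types in opposite directions at the 2 stages, each with intervals apart. Whether the stages differ was not tested, since each group has 1 library. *Usp1* codes for a deubiquitinating enzyme of DNA repair. The NesKO included its 220 nt exon in 25% of transcripts and the E18 wild type in 62.5%. This difference of -37.5 points came from 25 and 65 junction reads. Its intervals nearly touched, at 11.2 to 46.9 and 47.0 to 75.8, and the SpliceTrap ratios were nearer to each other, at 38.2 and 61.1%. Cortex at P1 gave 81.8 without *Ptbp2* in projecting neurons (EmxKO) and 62.3 with it, a difference of 19.54 points. *Armcx1* codes for a mitochondrial protein of the armadillo repeat family, and its exon has 92 nt. Inclusion of that exon was 66.2% in NesKO brain, against 21.9% at E18 in wild type, a difference of 44.28 points. EmxKO cortex had 43.3% and wild-type cortex 92.5%, a difference of -49.14 points. The lowest depth behind the *Armcx1* values was 89 junction reads.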

How the results depend on the processing

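The number of skipped exons, 1333 as reported, was 2379 with a limit of 90% and 2266 when the smaller inclusion junction replaced the mean. It lay between 1171 and 1265 when each library was left out in turn and between 952 and 1713 under the other settings. The count of exons past 10 points, 310 at E18, 329 at P1 and 606 between the wild types, was 85, 82 and 249 at 20 points, and 88, 109 and 357 with intervals apart. A minimum of 50 junction reads gave 203 at E18. The remaining settings kept these counts within 1.5 times. Leaving out exons with uneven junctions, a setting chosen after seeing the data like that without exons also labelled cassette, gave 1036 exons and 239, 252 and 446 past 10 points, and the other gave 1004 exons. No paired analysis was possible because each group has 1 library. For the same reason the comparisons cannot be repeated without a library, and differences between animals cannot be told apart from those between genotypes. At the median depth, 3 reads make up 1.76 to 2.86% of an exon's junction reads.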
